A study of Mus musculus with 12 samples.

Results

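The transcription factors that set the lineage of dendritic cells were followed in type 1 conventional dendritic cells (cDC1) of mice. The 10 genes were chosen by name from the known biology of the lineage, but with earlier results of these data known. They were Irf8, Batf3, Batf, Id2 and Nfil3 for cDC1, and Zbtb46 and Bcl6 for conventional dendritic cells (cDC) at large. Irf4 stood for the type 2 subset (cDC2), and Spib and Tcf4 for plasmacytoid dendritic cells (pDC). All 10 were found among 19938 genes measured, each on a single probe set of the array. RNA was measured on 12 Affymetrix arrays in 4 groups of 3. The groups were SDLN Xcr1Cre+ and SDLN Xcr1++, which are migratory cDC1 sorted from skin-draining lymph nodes, and SPL Xcr1Cre+ and SPL Xcr1++, which are cDC1 sorted from spleen. Every mouse was a naive C57BL/6 animal with both Cd40 alleles flanked by loxP sites. Xcr1Cre+ mice also carried Cre on 1 Xcr1 allele, so that Cre acts in cells that have expressed this cDC1 chemokine receptor, while Xcr1++ mice had no Cre. No group carried Cre with an unfloxed Cd40 gene. Sorted cells lacked B220 and Sirpa, bore XCR1 and much MHC class II, and had intermediate CD11c in lymph node and high CD11c in spleen.

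Dendritic cells form in the bone marrow, where IRF8 together with BATF3 commits precursors to cDC1, IRF4 serves cDC2, and the E protein encoded by Tcf4 directs pDC. ID2 binds E proteins and keeps them off DNA, so Id2 and Tcf4 stand on opposing sides of the choice between cDC and pDC. Migratory cDC1 of a skin-draining node are cells that left the skin and matured on the way, whereas splenic cDC1 are largely resident and immature.

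Cd40, the gene the cross was made to delete, did not follow the genotype labels on every array. Its intensity was 1427, 1388 and 3358 on arrays labelled SDLN Xcr1Cre+ for replicates 1, 2 and 3, against 2138, 2777 and 1542 on those labelled SDLN Xcr1++. In spleen it was 365, 214 and 569 on arrays labelled Xcr1Cre+, against 572, 525 and 309 on those labelled Xcr1++. Replicate 3 thus ran against the labels in both tissues, and the genotype names below are those of the labels. The positions of the Cd40 probes relative to the deleted part are not known here. The arrays of replicate 1 stood apart from the rest in all 4 groups, on a second principal component with 11.2% of the variance, after a first one with 79.5% that separated the tissues. Median intensities ran from 66.1 to 74.4 per array, and the number of arrays limits the precision. Markers of cDC1 were present on every array: all 10, Xcr1 among them, exceeded 55.4 in intensity, the 95th percentile of 1027 olfactory receptor genes. Their summed intensity was 3588 to 4528 in SDLN Xcr1Cre+ and 3323 to 4748 in SDLN Xcr1++, against 33410 to 46263 in SPL Xcr1Cre+ and 35870 to 45928 in SPL Xcr1++.

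Migratory cDC1 differed from splenic cDC1 in most of the lineage factors, in both genotypes. Irf4, the factor of cDC2, rose to 2.92 times the splenic level in Xcr1Cre+ mice and to 2.31 times in Xcr1++ mice. Spib, a pDC factor, rose by at least 1.63-fold and at least 2.0-fold over a splenic level close to background. Batf3, Id2 and Tcf4 also rose, Batf and Nfil3 fell, and Irf8 and Bcl6 did not pass the test. Differences are in log2 intensity, tested gene by gene in limma and called at a Benjamini-Hochberg adjusted p under 0.05 over all 19938 genes. In Xcr1Cre+ mice 8 of the 10 were called, 6 higher and 2 lower, where 28.3% of all genes were called (13.1% higher and 15.2% lower). In Xcr1++ mice 7 were called, 5 higher and 2 lower, against 26.1% of all genes (12.9% higher and 13.2% lower). The migratory and splenic arrays did not overlap for 8 of the 10 in either genotype, against 41.1% of all genes in Xcr1Cre+ mice and 36.3% in Xcr1++ mice. Of the 10, 7 were called in both genotypes with the same sign, against 22.7% of all genes. All 10 differences had the same sign in both genotypes, and the share of all genes that did so was not computed. In Xcr1++ mice Bcl6 and Irf8 each changed sign in 2 of 22 alternatives. The median absolute log2 difference of the 10 was 0.55 in Xcr1Cre+ mice and 0.65 in Xcr1++ mice, against 0.21 and 0.16 over all genes. Their signed median was 0.47 and 0.55, against 0.07 and 0.03 over all genes. Since the 10 were chosen with earlier results of these data known, these contrasts with all genes are descriptive only. Without SDLN Xcr1Cre+ replicate 3 the count in Xcr1Cre+ mice was 5, with Nfil3, Tcf4 and Zbtb46 no longer called. Without all arrays of replicate 2 it was 3 in Xcr1Cre+ mice and 2 in Xcr1++ mice, among 3081 and 3093 genes called. Without all of replicate 3 it was 4 and 2, among 3094 and 2865 genes. Without all of replicate 1 it was 10 and 9, among 7684 and 6906 genes.

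**Figure D1:**
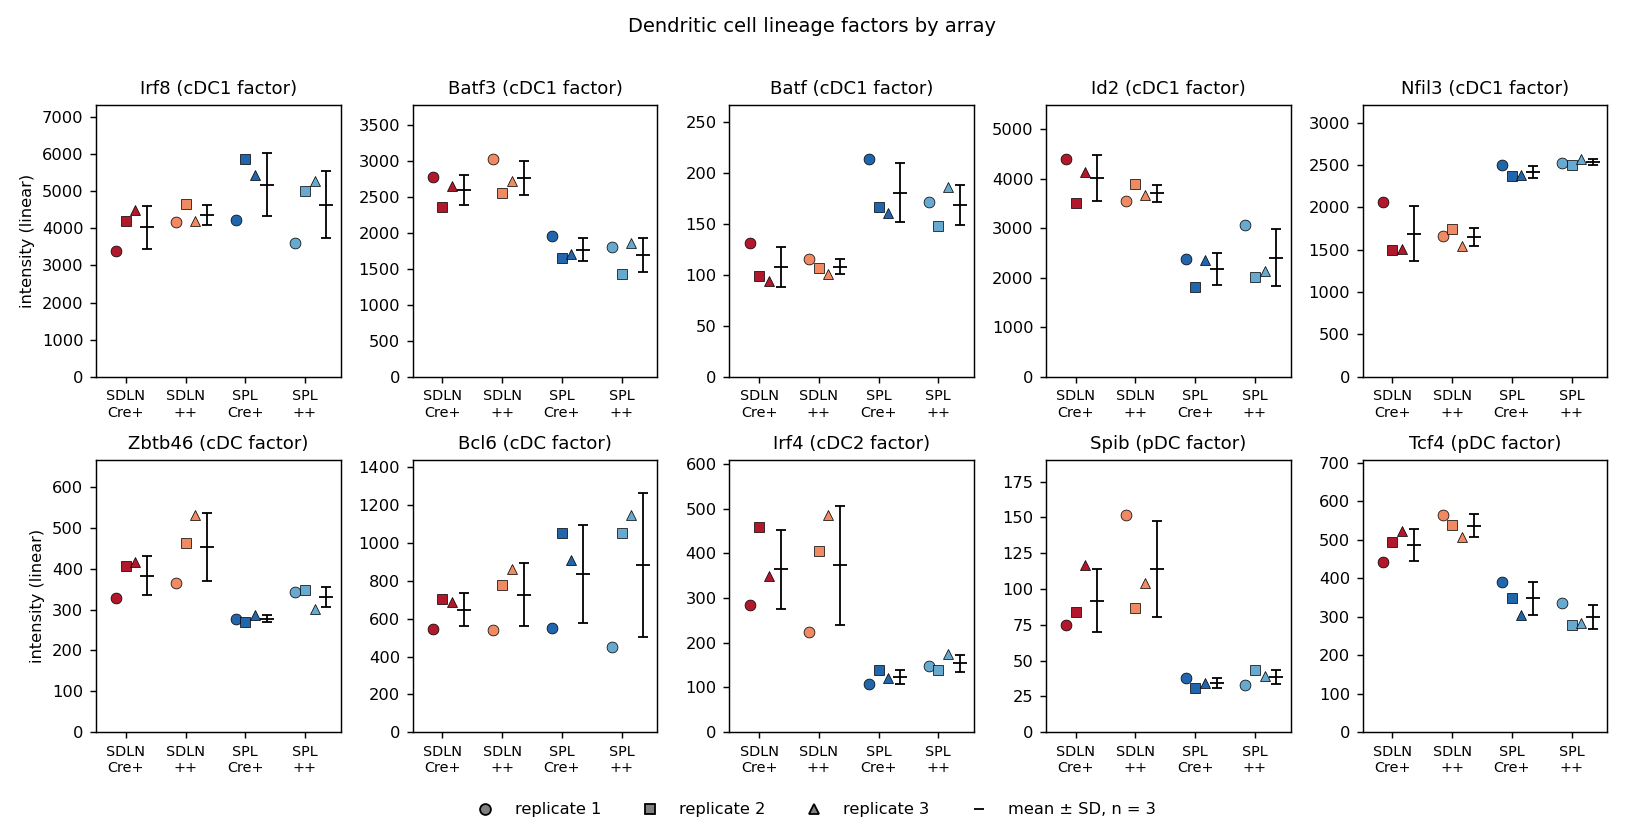
Intensity (linear) of each lineage factor on each array, with SDLN groups in red and orange and SPL groups in blue; marker shape gives the replicate and the bar the mean ± SD (n = 3). Batf3, Id2, Irf4, Spib and Tcf4 lie higher in SDLN on all arrays, Batf and Nfil3 lie lower in SDLN, and Irf8 and Bcl6 overlap.

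Irf8 encodes the interferon regulatory factor that cDC1 need to form and to keep their identity. In Xcr1Cre+ mice its intensity was 3385, 4194 and 4505 in migratory cells, against 4225, 5870 and 5431 in splenic cells. Xcr1++ mice had 4184, 4671 and 4206 in migratory cells, against 3611, 5012 and 5289 in splenic cells. The tissues overlapped in both genotypes, with the lowest splenic array of each on replicate 1. The log2 difference was -0.36 ± 0.17 (SE) in Xcr1Cre+ mice (ratio 0.78, limma adjusted p = 0.146) and -0.07 ± 0.17 in Xcr1++ mice (ratio 0.951, limma adjusted p = 0.848). Exact two-sided permutation tests over the 3 against 3 arrays gave p = 0.2 and p = 0.8, where 0.1 is the smallest possible. The 95% interval in Xcr1++ mice, -0.44 to 0.30, still allowed a modest change in either direction. The arrays of replicate 1 read lower than the geometric mean of the other two in every group, at 0.779 and 0.944 of it in SDLN Xcr1Cre+ and SDLN Xcr1++, and at 0.748 and 0.701 in SPL Xcr1Cre+ and SPL Xcr1++. With the replicate number as a block the fall in Xcr1Cre+ mice passed the test (limma adjusted p = 0.00421), and in Xcr1++ mice it did not (limma adjusted p = 0.593).

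Batf3 encodes the AP-1 family partner with which IRF8 holds cDC1 in their lineage. It read 2768, 2358 and 2652 in migratory cells of Xcr1Cre+ mice, against 1946, 1643 and 1704 in their splenic cells. The Xcr1++ values were 3020, 2554 and 2716 in migratory cells, against 1804, 1423 and 1856 in splenic cells. Every migratory array was above every splenic one. Batf3 rose by 0.56 ± 0.14 in log2 in Xcr1Cre+ mice (ratio 1.47, limma adjusted p = 0.00931) and by 0.71 ± 0.14 in Xcr1++ mice (ratio 1.64, limma adjusted p = 0.00174). The exact permutation p was 0.1 in both, its minimum, as it was for every pair of groups below that did not overlap.

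Batf, a relative of Batf3 that can stand in for it in mice that lack it, went the other way. Its intensity was 131, 98.8 and 94.1 in migratory cells of Xcr1Cre+ mice, against 214, 167 and 161 in splenic cells. The values in Xcr1++ mice were 116, 107 and 101 in migratory cells, against 172, 148 and 187 in splenic cells. All 6 migratory arrays were below all 6 splenic arrays. Batf fell by 0.75 in log2 in Xcr1Cre+ mice (SE 0.16, ratio 0.595, limma adjusted p = 0.00238) and by 0.64 in Xcr1++ mice (ratio 0.642, limma adjusted p = 0.00722). Leaving out any single array ended no call of Batf3 or Batf. Without all arrays of replicate 2 or of replicate 3, the Batf3 call ended in both genotypes (limma adjusted p from 0.0522 to 0.195). The Batf call ended without either in Xcr1++ mice (limma adjusted p = 0.0624 and 0.161). In Xcr1Cre+ mice it ended without replicate 2 (limma adjusted p = 0.056).

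Id2 encodes the inhibitor of E proteins that cDC1 require. Migratory cells of Xcr1Cre+ mice read 4393, 3504 and 4133, against 2367, 1805 and 2355 in splenic cells. Migratory cells of Xcr1++ mice read 3554, 3894 and 3676, against 3062, 2003 and 2141 in splenic cells. The tissues did not overlap, and the nearest splenic array was Xcr1++ replicate 1. Id2 rose by 0.89 ± 0.17 in Xcr1Cre+ mice (ratio 1.85, limma adjusted p = 0.00126) and by 0.65 ± 0.17 in Xcr1++ mice (ratio 1.57, limma adjusted p = 0.011). The call in Xcr1++ mice ended without SPL Xcr1++ replicate 2 (limma adjusted p = 0.0634) or replicate 3 (limma adjusted p = 0.0543). It also ended without all arrays of replicate 2 or of replicate 3 (limma adjusted p = 0.182 and 0.218).

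Nfil3 encodes a leucine zipper repressor that acts early in cDC1 specification. In Xcr1Cre+ mice it stood at 2061, 1500 and 1509 in migratory cells, against 2505, 2376 and 2382 in splenic cells. In Xcr1++ mice it stood at 1666, 1748 and 1542 in migratory cells, against 2519, 2505 and 2570 in splenic cells. Splenic arrays were tightly grouped and all higher than the migratory ones. Nfil3 fell by 0.53 in Xcr1Cre+ mice (SE 0.14, ratio 0.691, limma adjusted p = 0.0104) and by 0.62 in Xcr1++ mice (ratio 0.652, limma adjusted p = 0.00419). Without SDLN Xcr1Cre+ replicate 3 the fall in Xcr1Cre+ mice lost its call (limma adjusted p = 0.0528). Without all arrays of replicate 2 or of replicate 3, Nfil3 was not called in either genotype (limma adjusted p from 0.0707 to 0.219). Of the 5 cDC1 factors, Batf3 and Id2 were therefore higher in migratory cells, Batf and Nfil3 lower, and Irf8 without a call in the fit of 4 group means. The Irf8 fall in Xcr1Cre+ mice was called in 3 of 22 alternatives. These were the replicate block (limma adjusted p = 0.00421), array weights (limma adjusted p = 0.0163) and leaving out all replicate 1 arrays (limma adjusted p = 0.00236). The cDC1 markers, by contrast, had 9 of 10 members lower in Xcr1Cre+ mice and 10 of 10 lower in Xcr1++ mice, with median log2 differences of -3.30 and -3.50, and Xcr1 itself at -3.55 and -3.71. Fewer cells of a type and less RNA per cell cannot be told apart in such bulk samples.

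Zbtb46 encodes a zinc finger factor that marks committed cDC. It is shown first by the window at an annotated transcription start. This window alone among those examined matched a composite motif for AP-1 and IRF proteins. The window runs from 250 bases before to 50 after a transcription start, is taken from RefSeq on GRCm38.p6, lies at chr2:181424339-181424638 on the minus strand, and belongs to a start inside the annotated gene. Capitals mark the motif matches. The 250 bases before this start end in ccccacag, letters that also end introns, so the window may span the end of an intron. Whether it acts as a promoter was not tested.
Zbtb46: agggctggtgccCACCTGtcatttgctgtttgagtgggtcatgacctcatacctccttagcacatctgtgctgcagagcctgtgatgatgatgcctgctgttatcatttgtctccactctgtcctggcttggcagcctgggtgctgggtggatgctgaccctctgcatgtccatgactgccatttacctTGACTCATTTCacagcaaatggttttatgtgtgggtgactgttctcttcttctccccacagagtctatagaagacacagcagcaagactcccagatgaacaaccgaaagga
The match TGACTCATTTC, 61 bases before the start, is the AP-1 and IRF composite element (AICE) read on the opposite strand. It includes an AP-1 site (TGANTCA). The CACCTG 238 bases before the start is the E-protein motif CAGGTG on the opposite strand. Searched on both strands, the composite motif occurred in 0.125% of 32851 promoters of this length, the AP-1 site in 7.81% and the E-protein motif in 20.2%. These matches describe letters in the window and do not show binding.

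Zbtb46 intensity was 329, 406 and 416 in migratory cells of Xcr1Cre+ mice, against 276, 270 and 287 in splenic cells. For Xcr1++ mice the values were 366, 463 and 533 in migratory cells, against 342, 348 and 302 in splenic cells. Every migratory array exceeded the splenic arrays of its own genotype and replicate 1 was the lowest of each migratory group. Zbtb46 rose by 0.46 ± 0.16 in Xcr1Cre+ mice (ratio 1.37, limma adjusted p = 0.048), and its difference in Xcr1++ mice was of like size, 0.44 ± 0.16, without passing the test (ratio 1.36, limma adjusted p = 0.0591). The call in Xcr1Cre+ mice was lost on leaving out any 1 of 9 arrays (limma adjusted p from 0.0557 to 0.147), namely each splenic array, SDLN Xcr1++ replicate 2 and SDLN Xcr1Cre+ replicates 2 and 3. The difference in Xcr1++ mice passed in 7 of 22 alternatives. It did so without SDLN Xcr1++ replicate 1 (limma adjusted p = 0.0122), SDLN Xcr1Cre+ replicate 1 (limma adjusted p = 0.042) or all replicate 1 arrays (limma adjusted p = 0.00124). It also passed with the replicate block (limma adjusted p = 0.0144) and quantile normalization (limma adjusted p = 0.0166). The last 2 were eBayes without the trend (limma adjusted p = 0.0324) and array weights (limma adjusted p = 0.000409). Over all 22 alternatives the difference in Xcr1++ mice ran from 0.25 to 0.62 (limma adjusted p from 0.000409 to 0.619), lowest without all replicate 3 arrays.

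Bcl6 encodes a repressor that supports cDC1 development and is better known from germinal centre B cells. It read 548, 706 and 690 in migratory cells of Xcr1Cre+ mice, against 550, 1053 and 912 in splenic cells. In Xcr1++ mice it read 540, 780 and 861 in migratory cells, against 450, 1051 and 1151 in splenic cells. The tissues overlapped. The replicate 1 array was the lowest of each group, and on replicates 2 and 3 every migratory array was below every splenic one. On replicate 1 Bcl6 was 0.785 and 0.659 of the geometric mean of the other two in SDLN Xcr1Cre+ and SDLN Xcr1++, and 0.561 and 0.409 of it in SPL Xcr1Cre+ and SPL Xcr1++. The log2 difference was -0.33 ± 0.33 in Xcr1Cre+ mice (ratio 0.796, limma adjusted p = 0.51) and -0.19 ± 0.33 in Xcr1++ mice (ratio 0.874, limma adjusted p = 0.779). Exact permutation p-values were 0.3 and 0.6. Without all replicate 1 arrays the differences were -0.49 (limma adjusted p = 0.0032) and -0.42 (limma adjusted p = 0.0085), and Bcl6 was then called lower in migratory cells in both genotypes. A promoter window at a start inside the Bcl6 gene (chr16:23981234-23981533, minus strand) held GGAAAAGAAA 28 bases before the start, a match to the ETS and IRF composite element (EICE), which was found in 2.72% of promoters.

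Irf4 encodes the interferon regulatory factor of cDC2, and in mice IRF4 is also needed by dendritic cells of the skin to migrate to the node. Its promoter is shown because Irf4 rose by more than 2-fold in both genotypes over a splenic level above background. The RefSeq window (GRCm38.p6, chr13:30748983-30749282, plus strand) had 1 match among the motifs searched, a TATA box (TATAAA, in capitals) 26 bases before the start. This motif was present in 13.6% of promoters.
Irf4: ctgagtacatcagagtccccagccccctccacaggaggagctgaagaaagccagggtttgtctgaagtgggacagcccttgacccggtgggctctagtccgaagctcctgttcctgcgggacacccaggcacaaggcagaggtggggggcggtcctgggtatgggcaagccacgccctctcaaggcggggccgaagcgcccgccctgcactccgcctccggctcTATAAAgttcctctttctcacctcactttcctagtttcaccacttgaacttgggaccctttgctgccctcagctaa
None of the interferon-stimulated response element, the NF-kB motif or the NFIL3 motif TTANGTAA was found in these letters, and these motifs were present in 3.44%, 1.2% and 2.32% of promoters.

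Irf4 intensity reached 284, 460 and 349 in migratory cells of Xcr1Cre+ mice, against 108, 139 and 121 in splenic cells. In Xcr1++ mice it reached 225, 406 and 487 in migratory cells, against 148, 140 and 175 in splenic cells. No migratory array fell within the splenic range, and the lowest of each migratory group was replicate 1. Irf4 rose by 1.55 ± 0.25 in Xcr1Cre+ mice (ratio 2.92, limma adjusted p = 0.000303) and by 1.21 ± 0.25 in Xcr1++ mice (ratio 2.31, limma adjusted p = 0.00219). Same-numbered pairs of arrays gave ratios of 2.62, 3.3 and 2.89 in Xcr1Cre+ mice and of 1.53, 2.91 and 2.78 in Xcr1++ mice. The Irf4 call in Xcr1++ mice ended without all arrays of replicate 2 (limma adjusted p = 0.0565) or of replicate 3 (limma adjusted p = 0.0586). Markers of cDC2 summed to 894 to 975 in SDLN Xcr1Cre+ and 828 to 1092 in SDLN Xcr1++, against 803 to 852 in SPL Xcr1Cre+ and 757 to 824 in SPL Xcr1++. Of these 11 markers 1 was higher and 3 were lower in Xcr1Cre+ mice, and 1 was higher and 1 lower in Xcr1++ mice. Clec4a4, Mgl2, Clec10a and Clec4a1 stayed below the olfactory percentile on every array, and 5 to 6 of the 11 were above it on all arrays of each group. Esam, an adhesion molecule of a splenic cDC2 subset, was the marker that rose, with ratios of 3.09 in Xcr1Cre+ mice and 3.66 in Xcr1++ mice (limma adjusted p = 0.00117 and 0.000382). Sirpa, whose protein the sorted cells were gated to lack, had ratios of 1.36 and 1.34 without passing the test (limma adjusted p = 0.0528 and 0.0707). Of 11 maturation genes, 8 were higher and 2 lower in both genotypes, and they summed to 40297 to 54005 in SDLN Xcr1Cre+ and 43595 to 55666 in SDLN Xcr1++, against 16240 to 19354 in SPL Xcr1Cre+ and 19963 to 21310 in SPL Xcr1++. The 8 were Fscn1, Socs2, Ccl22, Ccl17, Relb, Cd40, Marcksl1 and Ccr7. The 2 lower were Cd86 (ratios 0.419 and 0.365 in Xcr1Cre+ and Xcr1++ mice) and Cd80 (ratios 0.522 and 0.431), and Cd83 was not called. The part of either marker list in the Irf4 result was not tested.

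Spib encodes an ETS factor of pDC and B cells. Its promoter is shown because Spib was called under every alternative setting, and it is a window with no match to any motif searched (RefSeq, GRCm38.p6, chr7:44532022-44532321, minus strand, no capitals).
Spib: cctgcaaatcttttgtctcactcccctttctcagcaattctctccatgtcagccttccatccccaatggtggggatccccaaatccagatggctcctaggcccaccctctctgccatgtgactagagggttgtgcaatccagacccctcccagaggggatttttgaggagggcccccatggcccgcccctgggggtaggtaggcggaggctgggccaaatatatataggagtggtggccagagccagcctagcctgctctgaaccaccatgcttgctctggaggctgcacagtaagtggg
Spib read 74.7, 84.0 and 117 in migratory cells of Xcr1Cre+ mice, against 37.9, 30.9 and 34.4 in splenic cells. Xcr1++ mice gave 152, 86.9 and 104 in migratory cells, against 33.1, 43.1 and 39.1 in splenic cells. The migratory arrays were all above the olfactory percentile of 55.4 and the splenic arrays all below it, so the splenic level has only an upper bound. Spib rose by 1.40 ± 0.20 in Xcr1Cre+ mice (ratio 2.63, limma adjusted p = 9.61e-05) and by 1.54 ± 0.20 in Xcr1++ mice (ratio 2.91, limma adjusted p = 4.12e-05). With splenic values set to the olfactory percentile, the migratory level was at least 1.63-fold higher in Xcr1Cre+ mice and at least 2.0-fold higher in Xcr1++ mice. It was called in both genotypes under all 22 alternative settings.

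Tcf4 encodes the E protein E2-2, which specifies pDC and is a target of ID2. In Xcr1Cre+ mice it measured 442, 493 and 522 in migratory cells, against 389, 347 and 305 in splenic cells. In Xcr1++ mice it measured 565, 537 and 506 in migratory cells, against 334, 278 and 283 in splenic cells. All migratory arrays lay above all splenic ones, with the narrowest gap on replicate 1 of Xcr1Cre+ mice. Tcf4 rose by 0.49 ± 0.15 in Xcr1Cre+ mice (ratio 1.40, limma adjusted p = 0.0213) and by 0.85 ± 0.15 in Xcr1++ mice (ratio 1.80, limma adjusted p = 0.000478). In Xcr1Cre+ mice the call was lost without SPL Xcr1Cre+ replicate 2 or 3 (limma adjusted p = 0.0607 and 0.114) and without SDLN Xcr1Cre+ replicate 2 or 3 (limma adjusted p = 0.0557 and 0.0807). Id2 and Tcf4 thus rose side by side in migratory cells.

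Markers of cells that express these pDC factors were measured beside them. Of 9 pDC markers, 0 were higher and 3 lower (Ccr9, Lair1 and Pacsin1) in Xcr1Cre+ mice, and 2 were higher (Bst2 and Atp1b1) and the same 3 lower in Xcr1++ mice. Their summed intensity was 2498 to 3555 in SDLN Xcr1Cre+ and 2760 to 3427 in SDLN Xcr1++, against 2386 to 3016 in SPL Xcr1Cre+ and 2247 to 2964 in SPL Xcr1++. Siglech, a surface receptor that defines mouse pDC, read 63.2, 73.1 and 73.7 in SDLN Xcr1Cre+, against 68.0, 56.7 and 64.4 in SPL Xcr1Cre+. It read 91.3, 67.3 and 67.3 in SDLN Xcr1++, against 64.7, 66.5 and 61.0 in SPL Xcr1++, and was not called in either genotype (limma adjusted p = 0.425 and 0.28). Of 9 B cell markers 0 were higher and 3 lower in each genotype, with Cd79a below the olfactory percentile on every array, and they summed to 390 to 511 in SDLN Xcr1Cre+ and 356 to 471 in SDLN Xcr1++, against 1111 to 1358 in SPL Xcr1Cre+ and 894 to 1503 in SPL Xcr1++. T cell markers moved with the tissue: 5 of 6 were higher and 1 lower in Xcr1Cre+ mice, and 4 were higher and 1 lower in Xcr1++ mice. They summed to 805 to 1717 in SDLN Xcr1Cre+ and 978 to 1567 in SDLN Xcr1++, against 703 to 871 in SPL Xcr1Cre+ and 778 to 851 in SPL Xcr1++. Cd3g, a subunit of the T cell receptor complex, read 513, 116 and 235 in SDLN Xcr1Cre+ and 445, 241 and 176 in SDLN Xcr1++, so it was highest on the replicate 1 array of each. Other genes of this list did not all rank the arrays alike. In SDLN Xcr1Cre+, Cd3d, Cd5 and Cd28 were highest on replicate 1 (332, 290 and 90.3), but Cd3e and Lat on replicate 3 (210 and 337). In SDLN Xcr1++, Cd3d and Lat were highest on replicate 1 (257 and 414), but Cd5 and Cd28 on replicate 2 (203 and 64.0). Cd3e read 196 on both of those arrays. Among the migratory arrays of Xcr1++ mice, Tcf4 and Spib were, like Cd3g, highest on replicate 1, at 565 and 152. Among those of Xcr1Cre+ mice they were lowest there, at 442 and 74.7, and Irf4 was lowest on replicate 1 in both. The part of T cell RNA in the results on Tcf4, Spib and Irf4 was not tested.

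**Figure D2:**
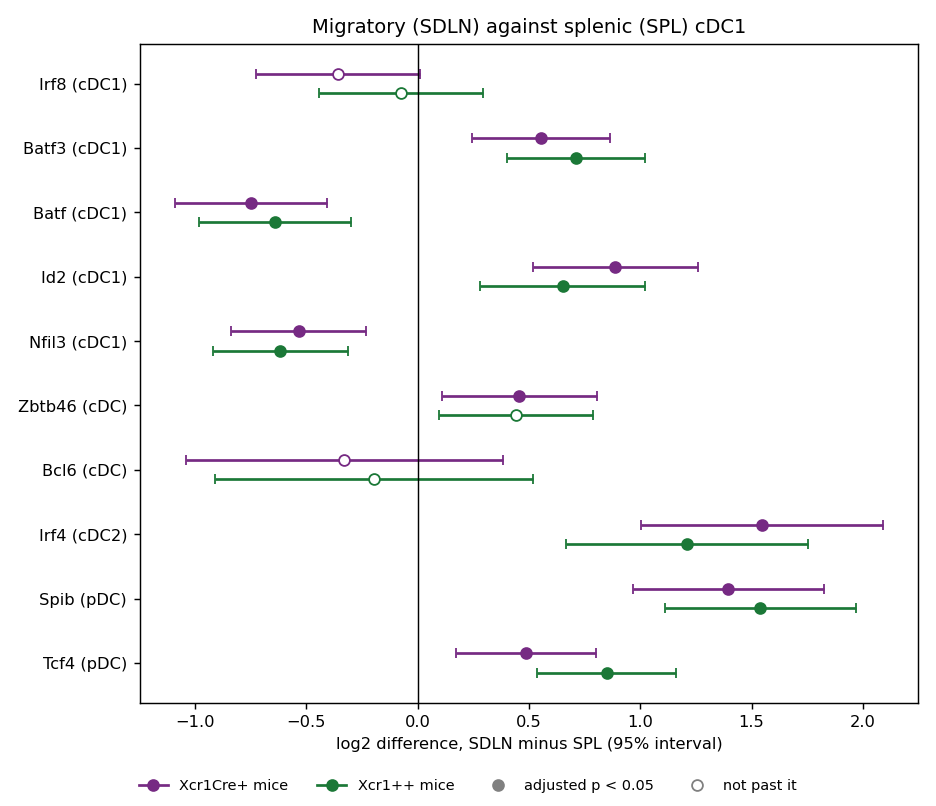
Log2 difference in intensity, SDLN minus SPL, for each lineage factor in Xcr1Cre+ mice (purple) and Xcr1++ mice (green); bars are 95% intervals from limma and filled points have an adjusted p under 0.05. Irf4 lies at 1.55 and 1.21 and Batf and Nfil3 lie to the left, between -0.75 and -0.53. The points of Spib rest on splenic arrays below the olfactory percentile, so they are not exact sizes: Spib was at least 1.63-fold and at least 2.0-fold higher.

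The other regulators of dendritic cell development were followed as a list of 38 genes, of which 36 were measured. In Xcr1Cre+ mice 11 were called higher and 12 lower in migratory cells, where 13.1% of all genes were higher and 15.2% lower. In Xcr1++ mice 12 were higher and 11 lower, where 12.9% of all genes were higher and 13.2% lower. Median log2 differences of the 36 were -0.01 and -0.12. The same shares of all genes apply to the counts of each side below and to those of the marker lists. On the cDC1 and progenitor side 1 of 15 was higher and 8 were lower in Xcr1Cre+ mice, and 1 was higher and 6 were lower in Xcr1++ mice (medians -0.62 and -0.40). Mycl, the Myc relative that sustains cDC1, differed by -2.90 and -2.84 in Xcr1Cre+ and Xcr1++ mice (limma adjusted p = 6.24e-06 and 7.87e-06). Bcl11a, a zinc finger factor of lymphoid and pDC development, differed by -2.41 and -2.32 (limma adjusted p = 2.88e-05 and 4.26e-05). It was listed on this side although it is also a pDC factor, so its fall counts here and not on the pDC side. Runx3, a Runt family factor, differed by -1.71 and -1.77 (limma adjusted p = 3.32e-07 and 2.44e-07). Ikzf1, which encodes Ikaros, differed by -1.57 and -1.61 (limma adjusted p = 7.83e-07 and 6.32e-07). The single riser of this side, Batf2, named after its values were seen, was a further relative of Batf3, with differences of 0.58 and 0.57 (limma adjusted p = 0.0169 and 0.0218).

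On the cDC2 side 4 of 9 measured regulators were higher and 3 lower in Xcr1Cre+ mice, and 4 were higher and 4 lower in Xcr1++ mice (medians -0.02 and -0.15). Relb, the NF-kB subunit of mature dendritic cells, had differences of 2.55 and 2.35 in Xcr1Cre+ and Xcr1++ mice (limma adjusted p = 2.42e-06 and 5.44e-06). Prdm1, which encodes the repressor Blimp-1, differed by 1.74 and 1.85 (limma adjusted p = 4.56e-05 and 2.7e-05), and since its splenic arrays were below the olfactory percentile it was at least 2.6-fold and at least 2.53-fold higher. Cebpd, a leucine zipper factor, differed by 1.29 and 1.90 (limma adjusted p = 4.28e-05 and 1.13e-06), and in Xcr1++ mice, where its splenic arrays were below that percentile, it was at least 3.44-fold higher. Notch2, the receptor that splenic cDC2 depend on, fell by 1.20 and by 0.97 (limma adjusted p = 0.00131 and 0.00637). Nr4a3, an orphan nuclear receptor, fell by 1.14 and by 1.47 (limma adjusted p = 0.000372 and 4.09e-05). Irf4 therefore rose within a group whose members went both ways.

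On the pDC side 5 of 9 measured regulators were higher and 1 lower in Xcr1Cre+ mice, and 6 were higher and 1 lower in Xcr1++ mice (medians 1.03 and 1.06). Tcf3, which encodes the E protein E2A, differed by 1.21 and 1.40 in Xcr1Cre+ and Xcr1++ mice (limma adjusted p = 0.000196 and 5.39e-05), alongside its relative Tcf4. Tcf12, the remaining E protein, did not pass the test at -0.17 and -0.12 (limma adjusted p = 0.538 and 0.748). Sox4, a factor of progenitors and lymphocytes, differed by 2.46 and 2.62 (limma adjusted p = 5.02e-06 and 2.9e-06) and was at least 4.46-fold and at least 4.95-fold higher, its splenic arrays being below the olfactory percentile. Myb differed by 1.77 and 1.69 (limma adjusted p = 7.68e-06 and 1.24e-05), and Cbfa2t3, a corepressor, by 1.24 and 1.21 (limma adjusted p = 0.00021 and 0.000269). Irf7, which drives type I interferon genes in pDC, was the called fall among the genes listed on this side and fell by 2.54 and by 1.73 (limma adjusted p = 8.35e-08 and 3.15e-06). T cells also express Tcf3, Sox4 and Myb. On the SDLN Xcr1Cre+ arrays Tcf3 read 547, 892 and 745, Sox4 160, 367 and 257 and Myb 569, 905 and 822, each lowest on replicate 1, where Cd3g was highest. Cd3e and Lat were highest on replicate 3 of that group. The part of T cell RNA in these rises was not tested.

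The other ID proteins were measured as partners of the same E proteins. Id3 rose by 1.49 in Xcr1Cre+ mice (limma adjusted p = 0.00206) and by 1.02 in Xcr1++ mice (limma adjusted p = 0.0248). Its intensity was 225, 74.7 and 79.9 in SDLN Xcr1Cre+ and 82.4, 74.8 and 88.4 in SDLN Xcr1++, against 49.4, 34.8 and 35.2 in SPL Xcr1Cre+ and 43.7, 39.5 and 37.9 in SPL Xcr1++. The splenic arrays were below the olfactory percentile, which gives at least 1.99-fold and at least 1.47-fold. SDLN Xcr1Cre+ replicate 1, the array with the highest Cd3g but not the highest Cd3e or Lat, stood far above the rest. Without it the Id3 difference in Xcr1Cre+ mice was 0.98 (limma adjusted p = 0.000254), at least 1.39-fold. The part of T cell RNA was not tested. Id1 differed by 0.11 and -0.17 (limma adjusted p = 0.587 and 0.468) and Id4 by 0.16 and 0.07 (limma adjusted p = 0.267 and 0.754), neither passing the test.

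**Figure D3:**
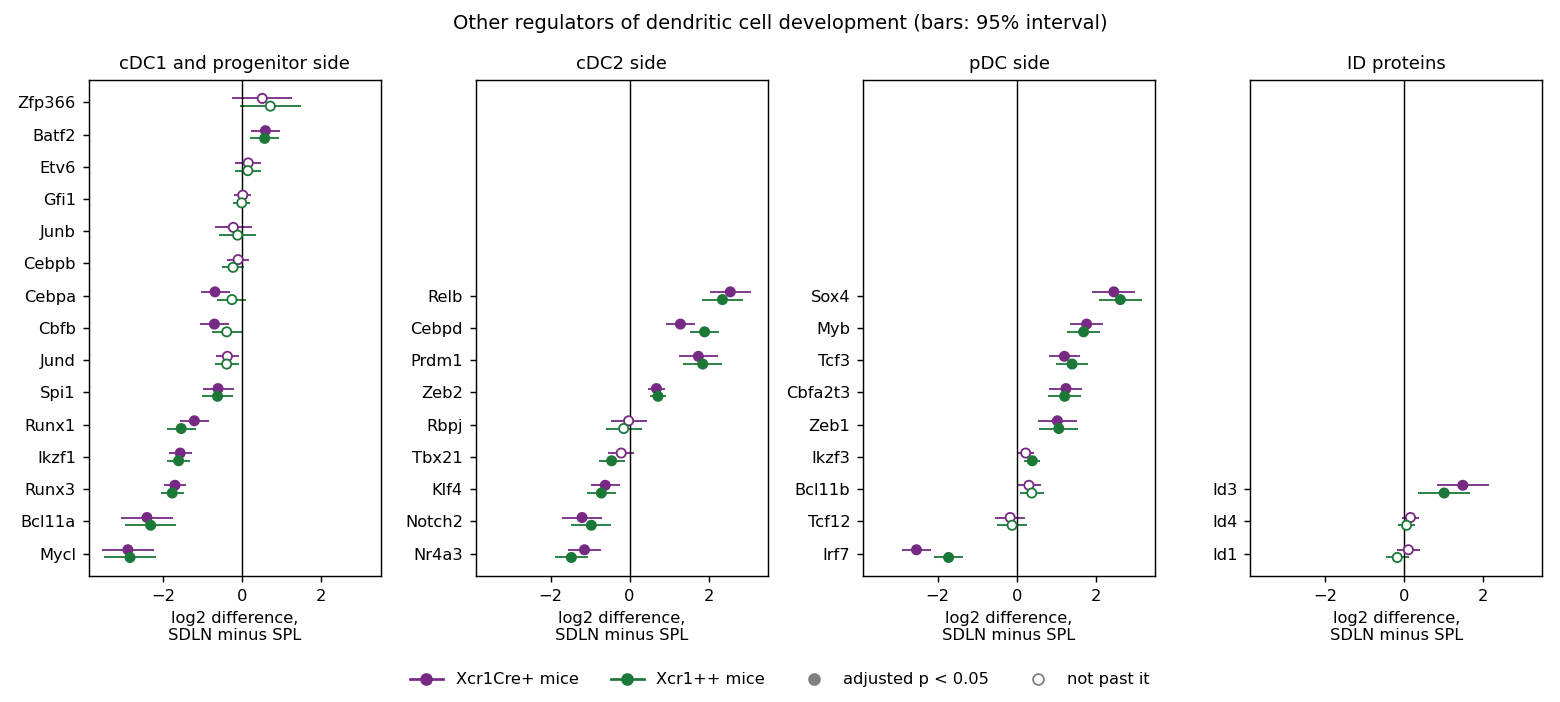
Log2 difference, SDLN minus SPL, of the 36 other regulators in Xcr1Cre+ mice (purple) and Xcr1++ mice (green), in panels by the side they act on; bars are 95% intervals and filled points have an adjusted p under 0.05. The cDC1 and progenitor panel leans to the left with Mycl at -2.90 and -2.84, and the pDC panel leans to the right, with Irf7 to the left. Bcl11a, at -2.41 and -2.32, is also a pDC factor but stands in the cDC1 and progenitor panel, and the lean of the panels depends in part on this placement.

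The study was made to compare cDC1 with and without Cd40, and the genotype comparison asked whether the lineage factors differ with it. Between arrays labelled Xcr1Cre+ and Xcr1++, none of the 10 passed the test in migratory cells or in splenic cells, and none had an unadjusted p under 0.05 in limma. Over all genes 0 were called in either tissue, with 402 (2.02%) at an unadjusted p under 0.05 in migratory cells and 357 (1.79%) in splenic cells. In migratory cells the log2 differences of the 10 ran from -0.30 for Spib to 0.11 for Id2, and their 95% intervals together spanned -0.86 to 0.56. In splenic cells they ran from -0.33 for Irf4 to 0.22 for Tcf4, with intervals spanning -0.87 to 0.70. In simulated data for the tissue comparison, with the same number of arrays, 32% of genes changed by 0.5 in log2 and 88% of those changed by 1 were recovered. That simulation changed 200 genes, where 28.3% of all genes were called in the real comparison of Xcr1Cre+ mice. Its noise was independent between arrays, without the shift of replicate 1. The recovery in the real tissue or genotype comparisons can therefore differ. A miss of the threshold does not show equal levels.

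Migratory arrays overlapped between the genotypes for all 10 factors, where 4.72% of all genes did not overlap. In splenic cells 3 of the 10 did not overlap, namely Irf4, Nfil3 and Zbtb46, against 7.64% of all genes. Splenic Irf4 was 108, 139 and 121 on Xcr1Cre+ arrays, against 148, 140 and 175 on Xcr1++ arrays, a log2 difference of -0.33 ± 0.25 (limma adjusted p = 1.0). Splenic Nfil3 was 2505, 2376 and 2382 on Xcr1Cre+ arrays, against 2519, 2505 and 2570 on Xcr1++ arrays, and differed by -0.06 ± 0.14. The Irf4 and Nfil3 gaps were narrow, with the closest arrays almost equal. Zbtb46 was lower on the Xcr1Cre+ array of all 3 same-numbered pairs in both tissues, with ratios of 0.897, 0.877 and 0.781 in migratory cells and of 0.807, 0.776 and 0.952 in splenic cells. In splenic cells Irf4 and Nfil3 were also lower in all 3 pairs, and Irf8 and Tcf4 higher. In migratory cells Batf3 was lower in all 3. The share of all genes with all 3 pairs alike was not computed. The Zbtb46 log2 differences of -0.23 ± 0.16 in migratory and -0.25 ± 0.16 in splenic cells did not pass the test (limma adjusted p = 1.0 in both). Without all replicate 3 arrays, on which Cd40 ran against the labels, they were -0.17 and -0.34, and 0 of the 10 factors were called in either tissue.

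The difference of the genotype effect between tissues, migratory minus splenic, was also tested, with 0 of the 10 and 0 of all genes called. At an unadjusted p under 0.05 it held 326 genes (1.64%) and none of the 10. The extremes were Tcf4 at -0.36 ± 0.21 and Irf4 at 0.34 ± 0.36 (limma adjusted p = 1.0 in both). For Tcf4 this corresponds to a tissue ratio of 1.40 in Xcr1Cre+ mice and 1.80 in Xcr1++ mice. The tissue differences of the factors were thus not shown to depend on the genotype label.

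**Figure D4:**
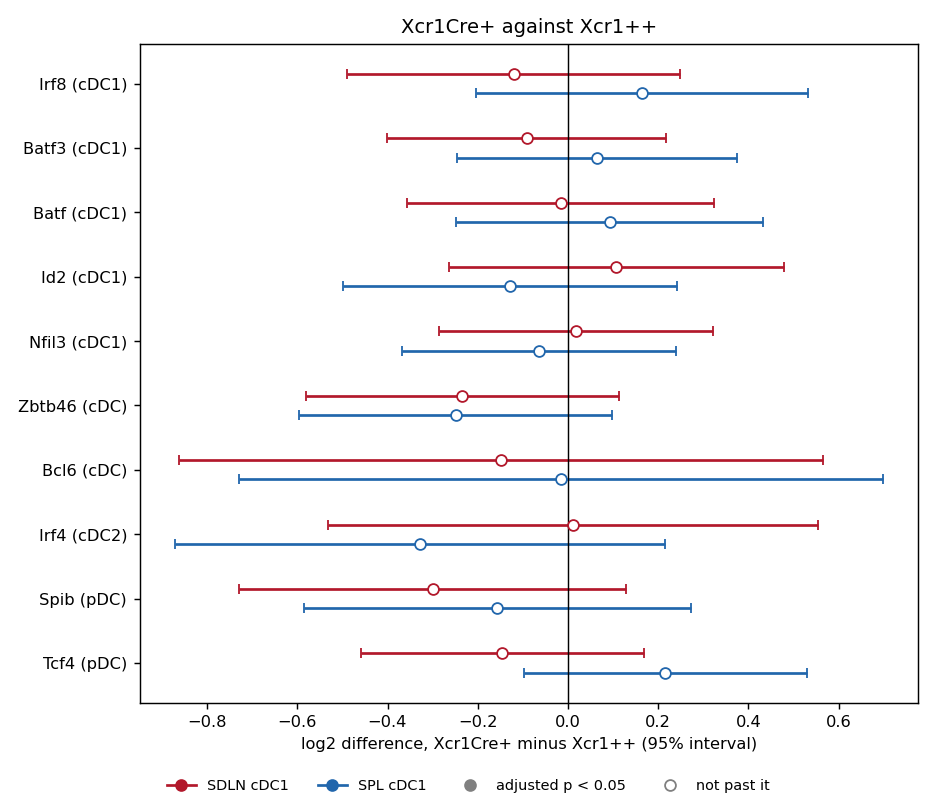
Log2 difference, Xcr1Cre+ minus Xcr1++, for each lineage factor in SDLN (red) and SPL (blue) cDC1; bars are 95% intervals from limma and open points did not reach an adjusted p under 0.05. All 20 intervals include 0, and the points lie between -0.33 and 0.22.

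Levels over the 4 groups can be put in order for each factor. For Batf3 the order was SDLN Xcr1++, SDLN Xcr1Cre+, SPL Xcr1Cre+ and SPL Xcr1++, with means of 2763, 2593, 1764 and 1694, and only the step between the tissues had no overlap. Spib and Tcf4 likewise overlapped within each tissue and not between tissues, as did Batf with the tissues in the opposite order. Irf8 had means of 4028 ± 578 in SDLN Xcr1Cre+ and 4354 ± 275 in SDLN Xcr1++, against 5175 ± 852 in SPL Xcr1Cre+ and 4637 ± 900 in SPL Xcr1++ (SD, n = 3), and neighbouring groups overlapped at every step. Bcl6 overlapped at every step too.

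The genes whose profiles over the 12 arrays were most like those of 5 factors were found by the root mean square difference between log2 values centred on each gene's mean, among 17410 genes above background on all arrays. Batf3 was most like Sdf2 (0.0581), Bloc1s3 (0.0744) and Npc2 (0.0892). Irf8 was most like Dhx29 (0.0742), Lrwd1 (0.0874) and H6pd (0.0909), and Tcf4 most like Fbxl8 (0.0907), Wbp2 (0.101) and Mepce (0.104). The nearest to Id2 were Krt14 (0.124), H2-Q10 (0.129) and Gemin7 (0.133). The nearest to Irf4 were at larger distances, namely Ccdc88a (0.181), Plekhm2 (0.189) and Gbp3 (0.190). Values were not scaled by each gene's own spread, so the distances do not compare the factors with each other.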

How the data were processed

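RNA of sorted cDC1 was hybridised to 12 arrays. Linear intensities were deposited by the authors for each probe set, and per the submitters' processing notes they come from Affymetrix Expression Console and its RMA method, with versions and genome build not given in the sources used here. They ran from 8.23 to 20398, so log2 was taken here. Of 28853 probe sets, 23410 were annotated, 21789 with 1 symbol and 1621 with several, which were not used; 21698 were matched to RefSeq by Entrez number. The brightest probe set stood for each of 999 genes with more than 1, leaving 19938 genes. Background was an intensity of 19.5 from 3 Y-linked genes, which 89.2% to 93.5% of genes exceeded per array; all 10 factors exceeded it on all arrays, and 9 exceeded the olfactory percentile on all arrays.

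The limma package, version 3.58.1, in R 4.3.3 (with data.table at version 1.17.8) gave a fit per gene with 4 group means over 12 arrays and eBayes with trend, two-sided, with Benjamini-Hochberg adjustment over all genes. In simulated data for SDLN against SPL in Xcr1Cre+ mice over 19938 genes, 32% of 100 genes changed by 0.5 in log2 and 88% of 100 changed by 1 were recovered, with 8 false calls. The noise was independent between arrays, and far fewer genes were changed than were called in the data. Exact permutation tests used scipy 1.17.1 (Python 3.11.15, numpy 2.4.6, pandas 2.3.3), and plots matplotlib 3.10.9. Whether replicates came from separate mice is not stated in the labels, and p-values therefore describe the spread between these samples, which may be technical. Replicate numbers from the titles recur across groups. For the arrays numbered 1, deviations from group means correlated between groups at 0.573 to 0.729. For those numbered 2 the range was 0.309 to 0.449, and for those numbered 3 it was 0.293 to 0.466, every pair over 0.1. Numbers 2 and 3 also correlated with each other, at 0.177 to 0.557. The median was 0.393 between numbers 2 and 3, against 0.416 within number 2 and 0.354 within number 3. The correlations thus set replicate 1 apart but do not tell pairs of number 2 from pairs of number 3. The fit of 4 group means used no pairing. Equal numbers were matched only in the replicate block and in the ratios of same-numbered arrays.

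The members and lists were chosen with earlier results of these data known. All 10 members are named; of the other regulators, up to 4 called genes per side and genotype with the largest differences, the E proteins and the ID proteins; and the 3 genes nearest in profile to 5 members. Of the other marker lists, NK cell genes had 0 of 5 called, monocyte and macrophage genes 3 of 7 lower, and cell cycle genes 4 of 4 lower in migratory cells of both genotypes, and of the Langerhans cell genes Epcam was higher and Cd207 lower in both. Promoters of 9 members came from RefSeq; that of Tcf4 is not shown. Alternatives were the replicate block, centring, quantile normalization, a background filter, the mean of probe sets, no trend, array weights, and leaving out arrays.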

Additional observations from a re-analysis of the deposited data

How the results depend on the processing

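Of 440 tissue results (10 factors in 2 genotypes under 22 alternatives), 388 kept their sign and their side of the threshold, 36 lost the call, 12 gained it and 4 changed sign, all 4 without a call. Of 484 genotype and interaction results none was called and 33 changed sign, so no direction is claimed for them. With the replicate block, 9 of the 10 factors were called in Xcr1Cre+ mice and 8 in Xcr1++ mice, among 8170 and 7178 genes; Irf8 (Xcr1Cre+) and Zbtb46 (Xcr1++) were added and no other call of a factor changed. With it 0 genes were called by genotype; the Tcf4 interaction was not called (limma adjusted p = 0.838). Array weights called 8933 and 9020 genes by tissue in Xcr1Cre+ and Xcr1++ mice, and by genotype 2 in SDLN, 51 in SPL and 3 in the interaction, none of them a lineage factor. Leaving out arrays, singly or all of 1 replicate number, gave 3081 to 7684 genes and 3 to 10 factors called in Xcr1Cre+ mice, and 2865 to 6906 genes and 2 to 9 factors in Xcr1++ mice. The highest counts came without all replicate 1 arrays, which stand apart, and the lowest without all of replicate 2 or 3. Median centring ended the Zbtb46 call in Xcr1Cre+ mice (limma adjusted p = 0.121).

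Signs turned as follows, in log2, and the cause was not tested. Over the leave-outs, the tissue difference in Xcr1++ mice ran from -0.62 to 0.053 for Bcl6 and from -0.24 to 0.056 for Irf8. The genotype difference in SDLN ran from -0.16 to 0.074 for Batf, -0.32 to 0.26 for Irf4, -0.13 to 0.14 for Nfil3 and -0.54 to 0.061 for Spib. In SPL it ran from -0.036 to 0.25 for Batf, -0.057 to 0.16 for Batf3, -0.44 to 0.26 for Bcl6, -0.26 to 0.060 for Id2, -0.0063 to 0.30 for Irf8 and -0.33 to 0.0052 for Spib. Array weights gave -0.11 for Irf4, -0.16 for Nfil3 and 0.17 for Spib in SDLN, and 0.060 for Id2 in SPL. Quantile normalization gave 0.020 for Batf in SDLN, and median centring 0.023 for Bcl6 in SPL. Signal limits Spib, whose splenic arrays were all below the olfactory percentile.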
